A study of Mus musculus with 4 samples.

Results

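Peaks at noncoding gene ends are intervals of accessible chromatin that reach within 1 kb of either end of a gene that makes no protein, and that lie farther than 1 kb from every end of a protein-coding gene. They were chosen by position alone, from the gene biotypes of the RefSeq table of GRCm38.p6. Of 93533 peaks in the lists of both genotypes, 6593 met this rule, 3090 of 44139 Gata2cKO peaks (7.001%) and 3503 of 49394 Gata2WT peaks (7.092%). Merged where they overlapped, they made up 4107 sites. Of these sites, 2466 held such a peak in both lists, 612 in the Gata2cKO list alone and 1029 in the Gata2WT list alone. A further 2080 Gata2cKO and 2130 Gata2WT peaks reached a noncoding end and a coding end together, and these count as coding gene-end peaks.

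The peaks came from ATAC-seq, in which a transposase inserts adapters into open DNA, on cells enriched for germ cells from the ovaries of female E14.5 mouse embryos (C57BL/6J strain; the labels call them ovarian cells). Gata2cKO embryos carried a floxed Gata2 and Prdm1-Cre, a recombinase driven by Prdm1, a gene that marks the founding of the germ line, and Gata2WT embryos were the genotyped controls of the same crosses, of Gata2flox/+ Prdm1-Cre males with Gata2flox/flox females. A Gata2flox/flox mother passes a floxed allele to every pup, and which alleles counted as Gata2WT is not stated. The ovaries were dissociated with trypsin, cells that carry SSEA1, an antigen on the surface of fetal germ cells, were enriched on beads, and each of the 4 libraries, 2 per genotype, was made from about 10000 cells. The deposited lists combine the 2 libraries of a genotype, so no replicate error and no test between genotypes could be had, and the bounds in brackets are those of 95% Wilson intervals, which hold counting error alone. A peak is called cKO-only or WT-only where no peak of the other list overlaps it by at least 1 bp. Absence from a list means only that a site did not reach the peak caller's limit, and says nothing of closed chromatin. The strength of a peak is its −log10 q, where q is the false discovery rate the authors' peak caller gave it, and its pileup is the number of fragments stacked at its summit. Neither was scaled between genotypes, so values of the same site stand side by side with no change read from them.

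Noncoding genes fall into families that different machinery transcribes. Long noncoding RNAs (lncRNAs) and the hosts of most microRNAs and small nucleolar RNAs are made by RNA polymerase II from promoters like those of coding genes, whereas tRNAs, 7SK and Y RNAs are made by RNA polymerase III from short compact genes. MicroRNAs are cut from longer transcripts, and bases 2 to 8 of the mature molecule, the seed, pair with the target. Promoters with many CpG dinucleotides tend to stay open in many cell types. GATA2, the deleted factor, is a zinc finger protein that recognises GATA motifs and has been studied most in the blood lineage.

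The starts of 4 lncRNA genes show a range of sequence at starts with such a peak, though a peak need not cover the whole stretch shown. The sequences run 5′ to 3′ along the gene, from 250 bases before to 50 after the annotated start, and are from RefSeq (GRCm38.p6). In the first 3, capitals mark CpG dinucleotides: 9330159M07Rik (chr9:88858821-88859120, minus strand) carried the strongest WT-only peak at a noncoding gene end, Mir22hg (chr11:75461289-75461588, plus strand), the host of microRNA-22, carried a strong shared peak, and Gm39843 (chr2:70922856-70923155, plus strand) carried a cKO-only peak. In the last, Gm36466 (chrX:58120895-58121194, plus strand), also with a cKO-only peak, capitals mark a GATA match on the opposite strand. That peak spans chrX:58121133-58121782, so it covers only the last part of the stretch shown, and the match lies outside it. The peak of Gm39843 begins at chr2:70922997, inside the stretch shown.
9330159M07Rik: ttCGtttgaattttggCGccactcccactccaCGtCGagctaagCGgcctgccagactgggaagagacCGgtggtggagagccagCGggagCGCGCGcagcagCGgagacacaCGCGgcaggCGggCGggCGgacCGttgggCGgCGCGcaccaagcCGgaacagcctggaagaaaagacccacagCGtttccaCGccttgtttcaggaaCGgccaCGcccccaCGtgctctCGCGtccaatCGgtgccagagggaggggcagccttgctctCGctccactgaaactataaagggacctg
Mir22hg: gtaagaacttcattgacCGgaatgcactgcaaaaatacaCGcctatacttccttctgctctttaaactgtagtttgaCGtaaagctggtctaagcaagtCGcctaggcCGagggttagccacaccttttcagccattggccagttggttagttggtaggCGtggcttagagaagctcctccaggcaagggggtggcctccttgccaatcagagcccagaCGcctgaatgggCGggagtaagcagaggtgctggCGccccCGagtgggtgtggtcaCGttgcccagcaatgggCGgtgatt
Gm39843: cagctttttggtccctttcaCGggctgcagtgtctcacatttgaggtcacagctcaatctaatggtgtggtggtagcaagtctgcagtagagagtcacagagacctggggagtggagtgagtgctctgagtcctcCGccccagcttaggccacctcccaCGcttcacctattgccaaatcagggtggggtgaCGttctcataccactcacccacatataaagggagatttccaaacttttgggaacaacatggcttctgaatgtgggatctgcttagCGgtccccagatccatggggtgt
Gm36466: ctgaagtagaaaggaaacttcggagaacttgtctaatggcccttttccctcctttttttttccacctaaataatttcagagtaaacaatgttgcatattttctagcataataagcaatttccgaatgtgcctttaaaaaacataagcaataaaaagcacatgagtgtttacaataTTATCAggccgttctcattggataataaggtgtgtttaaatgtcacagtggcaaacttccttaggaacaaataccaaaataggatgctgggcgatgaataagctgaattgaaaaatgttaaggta
The 300 bases of 9330159M07Rik hold 30 CpG and are 65.0% G or C, those of Mir22hg hold 12 CpG and are 54.7% G or C, and those of Gm39843 hold 5 CpG and are 52.7% G or C. Those of Gm36466 hold 4 CpG and are 34.3% G or C. None of the first 3 holds a GATA match, counted as AGATAA, as AGATAG, as TGATAA or as TGATAG on either strand.

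For microRNAs the mature sequences are shown because several genes with a peak in 1 list alone share their seed, in capitals, with another gene among those with such peaks.
miR-199b-3p: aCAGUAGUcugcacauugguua
miR-199a-3p: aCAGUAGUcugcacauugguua
miR-199a-5p: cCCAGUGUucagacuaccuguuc
miR-193b-3p: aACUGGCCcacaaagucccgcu
miR-193a-3p: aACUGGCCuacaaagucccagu
miR-294-3p: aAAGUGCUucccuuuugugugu
miR-295-3p: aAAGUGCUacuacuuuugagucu
miR-449c-5p: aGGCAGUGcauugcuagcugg
miR-34b-5p: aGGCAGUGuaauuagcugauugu
The 3p arms of miR-199a and miR-199b are the same molecule, miR-193a-3p and miR-193b-3p share a seed, as do miR-294-3p and miR-295-3p, and miR-449c-5p and miR-34b-5p. By RefSeq (GRCm38.p6), miR-199b-3p lies at chr2:32318524-32318545 (plus strand), miR-193b-3p at chr16:13449570-13449591 (plus), miR-193a-3p at chr11:79712009-79712030 (plus), miR-294-3p at chr7:3220691-3220712 (plus), miR-295-3p at chr7:3220815-3220837 (plus), miR-449c-5p at chr13:113036008-113036028 (plus) and miR-34b-5p at chr9:51103610-51103632 (minus). miR-199a-3p and miR-199a-5p come from Mir199a-1 on chromosome 9 and from Mir199a-2 on chromosome 1. Of 167 microRNA genes with a peak at an end, 146 had a mature sequence in the table.

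Noncoding gene ends were more densely covered with peaks than the rest of the genome and less densely than coding gene ends. Their windows spanned 83.8 Mb, or 3.21% of the autosomes and X, and held 36.9 peaks per Mb in the Gata2cKO list and 41.8 in the Gata2WT list. Coding gene ends held 179 and 184 peaks per Mb in the Gata2cKO and Gata2WT lists, and everything else held 11.0 and 12.8. In strength the peaks lay nearer to those over 1 kb from any gene end, inside genes or between them: the median −log10 q was 6.62 in the Gata2cKO list and 6.45 in the Gata2WT list, against 29.1 and 35.2 at coding ends and 4.78 and 4.69 elsewhere. The median width was 532.5 bp in Gata2cKO and 548 bp in Gata2WT, and the median pileup was 18 fragments in both. Of these peaks, 32.4% in Gata2cKO and 32.2% in Gata2WT lay inside the span of a coding gene.

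Fewer of the peaks at noncoding ends than of those elsewhere were in 1 list alone, and more than at coding ends. In the Gata2cKO list 555 of 3090 were cKO-only (17.96%, 16.6 to 19.4), where the background over all Gata2cKO peaks was 19.7%. In the Gata2WT list 951 of 3503 were WT-only (27.1%, 25.7 to 28.6), where the background over all Gata2WT peaks was 28.5%. These shares are near the background of their lists. At coding ends the shares were 4.51% cKO-only and 7.17% WT-only, and elsewhere they were 27.8% and 38.4%. The Gata2WT list is the longer one: with the Gata2WT list shortened to the 44139 strongest peaks, the shares were 20.6% cKO-only and 22.4% WT-only.

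The order of positions held within peaks of like strength, shown here for the ranges that hold most of the single-list peaks. For a −log10 q of 2 to 5, 34.6% of the Gata2cKO peaks at noncoding ends were cKO-only (31.7 to 37.7), against 25.3% at coding ends (23.1 to 27.7) and 41.0% elsewhere (40.1 to 42.0). In the Gata2WT list the WT-only shares in that range were 533 of 1066 at noncoding ends (47.0% to 53.0%), 43.8% at coding ends (41.2 to 46.4) and 53.7% elsewhere (52.8 to 54.6). For a −log10 q of 5 to 10, they were 9.04%, 5.60% and 14.4% cKO-only in the Gata2cKO list, and 17.1%, 12.0% and 22.4% WT-only in the Gata2WT list, in the same order of positions. The plot by strength shows the noncoding curve between the other two in these ranges of both lists, and its interval overlaps another only in Gata2WT at 2 to 5, where it meets that of peaks elsewhere. Among strong peaks, of −log10 q at least 10, 5 of 1116 were cKO-only, where the background was 0.802%, and 17 of 1279 were WT-only, where the background was 1.3%.

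**Figure D1:**
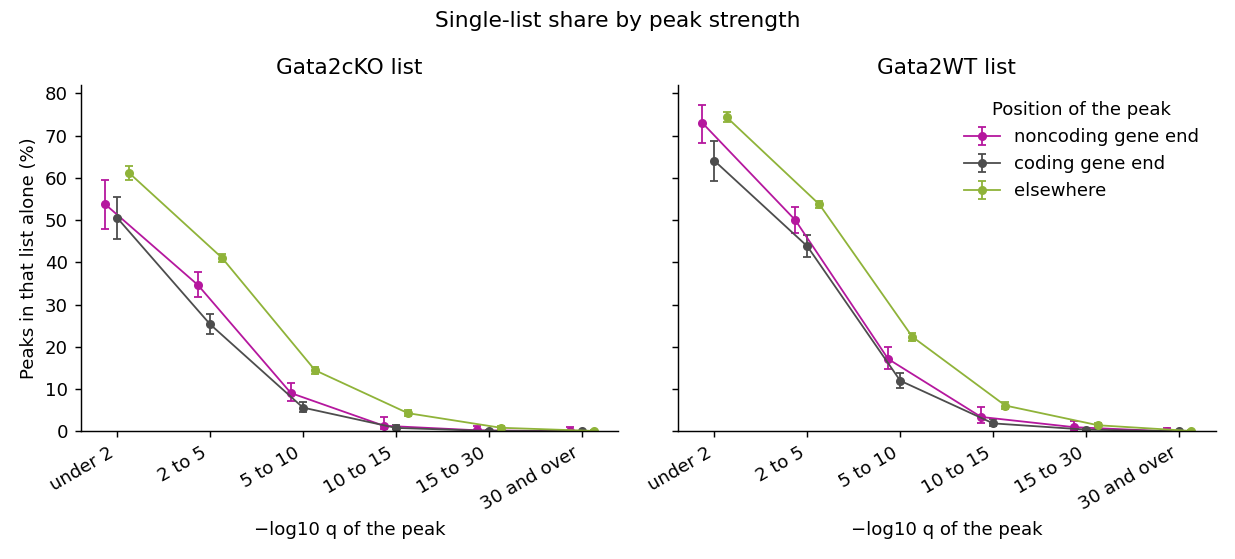
Share of peaks found in that list alone (%) against −log10 q of the peak, in the Gata2cKO list (left) and the Gata2WT list (right), for peaks at noncoding gene ends, at coding gene ends and elsewhere; points are shares and bars are 95% Wilson intervals. In the range 5 to 10 the shares at noncoding, coding and other positions are 9.04%, 5.60% and 14.4% in Gata2cKO and 17.1%, 12.0% and 22.4% in Gata2WT.

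Peaks that covered a noncoding end were stronger than those that did not. Peaks that covered a noncoding end, 1317 in Gata2cKO and 1475 in Gata2WT, had a median −log10 q of 10.3 in each list, and 11.4% of them were cKO-only and 17.7% WT-only. Outside the end itself the median −log10 q changed little with distance, while the cKO-only share went down and then up. Peaks up to 250 bp away had a median −log10 q of 5.18 in Gata2cKO and 5.07 in Gata2WT, and 22.5% were cKO-only and 35.5% WT-only. Peaks more than 0.5 kb away had 4.83 in Gata2cKO and 4.82 in Gata2WT, and 25.9% were cKO-only (22.9 to 29.2) and 32.8% WT-only (29.6 to 36.1). Within the last 0.1 kb inside the limit of the rule, 28.0% of 150 Gata2cKO peaks were cKO-only and 28.7% of 164 Gata2WT peaks were WT-only. Within the first 0.1 kb outside it, the shares were 19.7% of 132 Gata2cKO peaks and 35.2% of 145 Gata2WT peaks. The median −log10 q was 5.03 in Gata2cKO and 5.69 in Gata2WT just inside, and 5.37 and 5.44 just outside.

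The share of genes with such a peak differed widely between biotypes. Of 27884 noncoding genes whose end windows are not wholly taken up by coding gene ends, 4091 had a peak at an end (14.7%, 14.3 to 15.1). A gene is counted in 1 list alone only where the other list has no peak of any kind within 1 kb of its ends. By that count 480 genes had a peak in Gata2cKO alone, 873 in Gata2WT alone and 2738 in both. Gata2cKO alone made up 11.7% and Gata2WT alone 21.3% of the genes with a peak. Among 14373 coding genes with a gene-end peak the share was 1.96% in Gata2cKO alone and 3.45% in Gata2WT alone. Those coding genes were counted with any peak at their ends, and the 2 kinds of peak differ in strength. The median −log10 q was 29.1 in Gata2cKO and 35.2 in Gata2WT at coding ends, and 6.62 and 6.45 at noncoding ends. The counts by gene are not matched for strength. Among the 7 biotypes in the plot by gene, tRNA genes stood highest, with a peak at 215 of 404 (53.2%, 48.3 to 58.0), followed by lncRNA genes with 2856 of 12684 (22.5%, 21.8 to 23.3). Transcribed pseudogenes followed with 77 of 476 (16.2%) and microRNA genes with 167 of 1217 (13.7%). Lower shares were those of snRNA genes, 6.79% (68 genes), pseudogenes, 6.15% (606 genes), and snoRNA genes, 4.58% (61 genes). The annotated rRNA genes, 63 in all, had none. A peak can reach several genes: 244 Gata2cKO and 262 Gata2WT peaks reached at least 2.

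**Figure D2:**
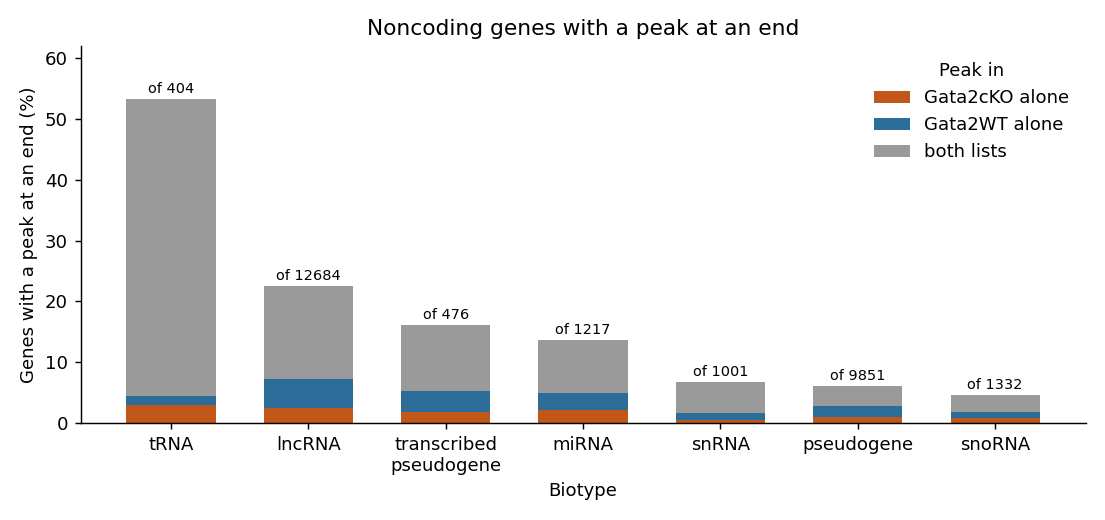
Share of noncoding genes with a peak at an end (%), by biotype, split into genes with a peak in the Gata2cKO list alone, in the Gata2WT list alone and in both lists; the number above a bar is the number of genes that could hold such a peak. tRNA genes reach 53.2%, lncRNA genes 22.5% and snoRNA genes 4.58%.

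lncRNA genes account for most of the peaks. They had 2312 in the Gata2cKO list and 2620 in the Gata2WT list, of which 17.5% were cKO-only (16.0 to 19.1) and 26.5% WT-only (24.8 to 28.2), close to the shares over all noncoding ends. By gene, 1936 lncRNA genes had a peak in both lists, 320 in Gata2cKO alone and 600 in Gata2WT alone. Strand was known for the 9520 of 12697 lncRNA genes that have a promoter entry in RefSeq, which separates their starts from their far ends. Peaks at a start alone, 1189 in Gata2cKO and 1342 in Gata2WT, had a median −log10 q of 7.41 and 7.37. Peaks at a far end alone, 474 in Gata2cKO and 540 in Gata2WT, had a median of 5.13 and 5.33. At starts 15.6% were cKO-only (13.6 to 17.7) and 24.8% WT-only (22.6 to 27.2), and at far ends 21.9% were cKO-only (18.4 to 25.9) and 30.6% WT-only (26.8 to 34.6). Summits gathered at the starts: of summits within 1 kb of a start, 57.8% in Gata2cKO and 57.2% in Gata2WT lay within 300 bp of it, against 23.6% and 24.8% at far ends.

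**Figure D3:**
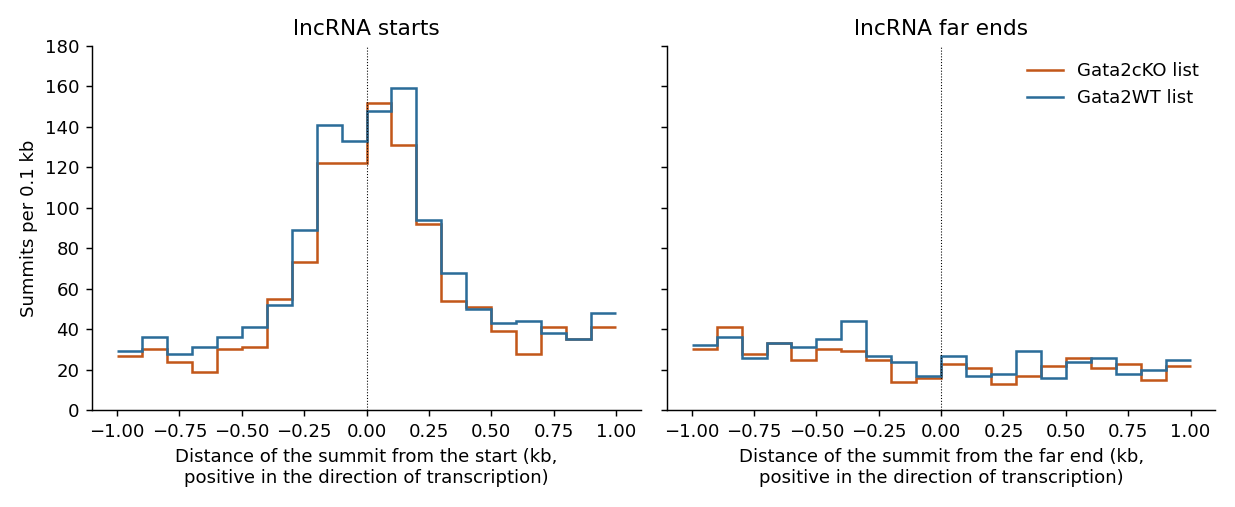
Number of peak summits per 0.1 kb around lncRNA starts (left) and far ends (right), against distance in kb, positive in the direction of transcription, for the Gata2cKO and Gata2WT lists. Summits pile up around starts, with 57.8% in Gata2cKO and 57.2% in Gata2WT within 300 bp, against 23.6% and 24.8% around far ends.

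The share of lncRNA starts with a peak went up with their CpG content. Among starts over 1 kb from coding ends, a noncoding gene-end peak was present at 2.34% of the 3680 with 0 to 2 CpG in the 300 bases, at 7.92% of the 3473 with 3 to 5, at 17.8% of the 1765 with 6 to 9, at 38.5% of the 847 with 10 to 19 and at 77.3% of the 308 with 20 or more. A further 136 starts, with a median of 11 CpG, had only another kind of peak. They are in these totals but are not counted as having a peak. Of the starts with a peak, the part in Gata2cKO alone was 17.4% at 0 to 2 CpG and 2.10% at 20 or more, and the part in Gata2WT alone was 31.4% and 6.72%. The median was 6 CpG at starts with a peak in Gata2cKO alone, 6 in Gata2WT alone, 11 in both lists and 3 at starts with no peak. GGGCGG, the letters bound by SP factors, was found in 24.1% of starts in Gata2cKO alone, 24.3% in Gata2WT alone, 40.2% in both lists and 6.90% of those with no peak. These counts are on either strand, and 46.7% of all 21045 coding starts hold it.

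The shares of lncRNA starts with GATA letters had overlapping intervals in Gata2cKO alone and Gata2WT alone. The letters were found at 28.6% of 133 starts with a peak in Gata2cKO alone (21.6 to 36.8), at 32.6% of 288 in Gata2WT alone (27.5 to 38.3), at 22.4% of 818 in both lists and at 41.6% of 8698 with none. Over all coding starts the share was 25.8%. Shares of letters move with base composition: the median G and C content was 51.3% in Gata2cKO alone, 51.0% in Gata2WT alone, 55.7% in both lists and 46.7% with no peak. The TATA letters TATAAA were found at 24 of 133 starts in Gata2cKO alone, 32 of 288 in Gata2WT alone, 59 of 818 in both lists and 1576 of 8698 with no peak, and CACGTG, the E-box bound by MYC and USF proteins, at 6.77%, 7.29%, 10.3% and 4.94% of these groups in the same order. The CCAAT box, bound by NF-Y, was found at 30.1%, 35.8%, 33.4% and 36.8%. The NRF1 motif was found at 0 of 133, 1 of 288, 8 of 818 and 5 of 8698. No match in this window says nothing of binding by any of these factors.

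**Figure D4:**
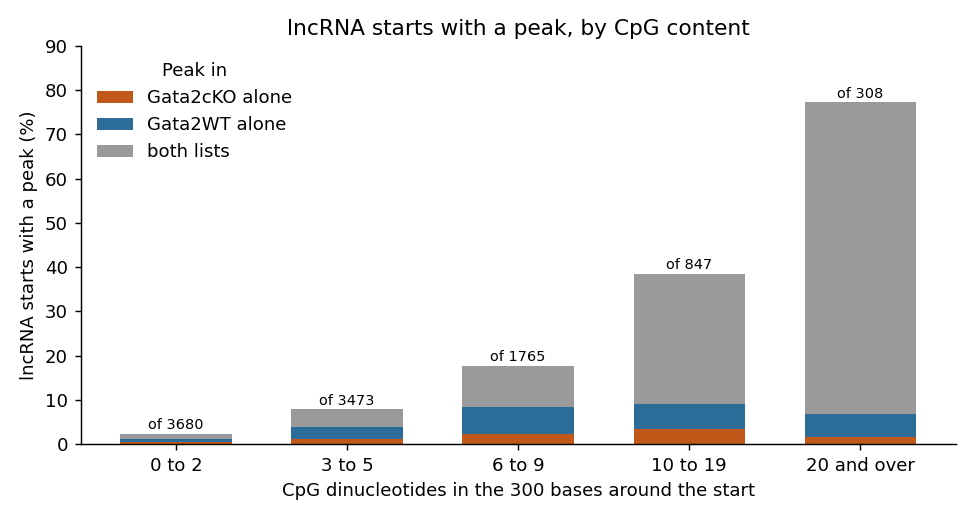
Share of lncRNA starts with a peak (%) by the number of CpG dinucleotides in the 300 bases around the start, split into starts with a peak in the Gata2cKO list alone, in the Gata2WT list alone and in both lists; the number above a bar is the number of starts. The share is 2.34% at 0 to 2 CpG and 77.3% at 20 and over. The 136 starts with only another kind of peak are not counted as having a peak.

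The strongest WT-only peak at any noncoding end covered the start of 9330159M07Rik and an end of its neighbour Gm26611, on the CpG-rich sequence shown above. It spanned chr9:88858868-88859135, with a −log10 q of 29.9, a fold enrichment of 11.9 and a pileup of 37 fragments over a local background of 2.19. The nearest Gata2cKO peak was 310.3 kb away, and the nearest coding end, of Trim43c, was 10.8 kb away. C330011F03Rik followed, with a −log10 q of 18.04 and 73.75 kb to the nearest Gata2cKO peak, then Gm42262 with 17.2, which stands 336.4 kb from the nearest Gata2cKO peak and 347.3 kb from the nearest coding end, that of the neural factor gene Pou3f2. A peak shared by Gm32817, Gm53058 and Mir193b had 15.4. The snRNA gene Gm23971 had 14.1, with a Gata2cKO peak of −log10 q 6.26 only 0.954 kb away, Gm34645 had 14.0 and Gm32596 had 13.8. Gm41597 had 12.0 and lies 41.9 kb from the end of Dazl, which encodes a germ cell RNA-binding protein. The pseudogenes Gm13136 and Gm6226 had 12.0 and 11.0.

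The strongest cKO-only peaks had lower values. The first was at Gm41287 (chr15:31546391-31546756), with a −log10 q of 16.0, a pileup of 30 fragments and a Gata2WT peak of −log10 q 7.81 at 3.60 kb. Gm36466 (chrX:58121133-58121782) followed with 13.1 and 22 fragments, 81.8 kb from the nearest Gata2WT peak. The lncRNA Gm52036 and the glutamate tRNA gene n-TEttc5 shared a peak of 12.7, 0.917 kb from a Gata2WT peak, and the pseudogene Gm13535, inside Gpd2, had 12.5. Gm39843 (chr2:70922997-70923665) had 10.8 with 22 fragments, 74.3 kb from the nearest Gata2WT peak. Below a −log10 q of 10 came Gm41198 with 9.77, Gm10036, Cd1d2 and Gm30725 with 9.65 each, and Gm31865 with 9.44. The 3 peaks at 9.65 each had a pileup of 18 fragments at the genome background of 2.01, since a given pileup on the same background always has the same q.

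Shared peaks at lncRNA genes reached far higher values. At 1700113A16Rik the −log10 q was 117.7 in the Gata2cKO list and 159.8 in the Gata2WT list, with pileups of 151 and 197 fragments. At Mir22hg it was 96.3 in Gata2cKO and 122.5 in Gata2WT, with pileups of 159 and 191. At Crnde it was 94.4 in Gata2cKO and 110.1 in Gata2WT, with pileups of 148 and 177. Other strong shared peaks at noncoding ends had the higher value in Gata2cKO. At 5730405O15Rik the −log10 q was 121.7 in Gata2cKO and 97.7 in Gata2WT, and at AY036118 it was 240.2 and 211.3. The highest −log10 q at any noncoding end, 370.4 in Gata2cKO and 479.1 in Gata2WT, stood at Rn18s-rs5, a pseudogene related to 18S ribosomal RNA on chromosome 17, over peaks of 3589 and 3581 bp that were also the widest at noncoding ends. The next widest were 2451 bp at Gm12925 in Gata2cKO and 2902 bp at Gm7854 in Gata2WT. The local background at Rn18s-rs5 was 603.3 fragments in Gata2cKO and 632.3 in Gata2WT, and at its neighbour AY036118 it was 604.2 and 626.6, where the genome background was 2.01 and 2.19. Ribosomal DNA is present in many copies, and the sources used here do not say how reads that match several copies were placed.

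Long-studied lncRNAs were in both lists wherever they had a peak. Of 13 found in the gene table, 9 had a peak in both lists, none in 1 list alone, and 4 had no peak by this rule, 1 of which, Tug1, was reached by a peak at a coding end. Over all noncoding genes with a peak, 11.7% were in Gata2cKO alone and 21.3% in Gata2WT alone. These counts are not matched for strength. Among all peaks of −log10 q at least 10, only 0.802% were cKO-only and 1.3% WT-only. At Oip5os1 the −log10 q was 48.6 in Gata2cKO and 57.9 in Gata2WT, and at Malat1, a nuclear speckle RNA, it was 46.0 and 52.8. Dleu2, a microRNA host gene, had pileups of 48 in Gata2cKO and 59 in Gata2WT. Malat1 was among the genes with the most such peaks, 3 in Gata2cKO, 1 of them cKO-only, and 2 in Gata2WT, where Gm30543 had the most with 3 in each list. Beside their shared peaks, Neat1 had 1 WT-only peak and Trp53cor1 had 1 cKO-only peak. Of 20 snoRNA host genes, 12 had a peak in both lists, and 7 of the others were reached only by peaks that count as coding gene-end peaks. The strongest were at Snhg5, with 77.4 in Gata2cKO and 80.4 in Gata2WT, Snhg15 with 49.6 and 58.7, Snhg8 with 47.0 and 72.1, and Snhg9 with 38.7 and 49.3.

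At the X inactivation centre, whose RNAs silence or regulate an X chromosome, 3 of 4 genes had a peak in both lists. The −log10 q was 7.66 in Gata2cKO and 8.52 in Gata2WT at Xist, the silencing RNA itself, with pileups of 17 and 21. It was 7.78 in Gata2cKO and 15.4 in Gata2WT at Jpx, an activator of Xist, and 7.62 and 2.35 at Ftx. Tsix, the antisense partner of Xist, had none. Of 9 imprinted noncoding genes, which are transcribed from 1 parental allele, 5 had peaks in both lists. Gnasas1, the antisense RNA of the Gnas locus, had a −log10 q of 38.3 in Gata2cKO and 48.9 in Gata2WT, Kcnq1ot1 had 36.8 and 41.4, Airn had 36.1 and 40.4, and Peg13 had 29.3 and 32.9. H19 had a cKO-only peak of 2.47 and a pileup of 16, and Meg3, Rian and Snhg14 had no peak of any kind. A peak at an end was held by 14.7% of all noncoding genes and by 22.5% of lncRNA genes. Of all noncoding genes with a peak, 11.7% were in Gata2cKO alone and 21.3% in Gata2WT alone. The genes named here are too few to set against the shares in 1 list alone.

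Among lncRNAs named for their expression in embryonic stem cells, more had a peak in Gata2WT alone than in Gata2cKO alone. Of 20 genes, 1 had a peak in Gata2cKO alone, 5 in Gata2WT alone and 6 in both. The Gata2WT list is the longer, and over all noncoding genes with a peak 11.7% were in Gata2cKO alone and 21.3% in Gata2WT alone. At 3 of the 5 genes in Gata2WT alone the peak was WT-only. Platr3 and Platr14 each had a −log10 q of 5.62 and a pileup of 14, and Platr22 had 4.27 and 17. At the remaining 2 the Gata2WT peak overlapped a Gata2cKO peak that lay just beyond 1 kb of the gene. At Platr6 the −log10 q was 4.38 in Gata2cKO, 1.06 kb from the gene, and 11.4 in Gata2WT, and at Lncenc1 it was 3.11, 1.01 kb away, and 6.08. With a window of 0.5 kb or of 2 kb, 3 genes stood in Gata2WT alone. Platr8 was in Gata2cKO alone, with 1.499. Among the genes with shared peaks, Platr25 had 22.5 in Gata2cKO and 31.7 in Gata2WT, Platr27 had 13.2 and 16.1, Platr29 had 6.93 and 2.94, and Platr4 had 4.48 and 15.7.

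Of 22 antisense or neighbour lncRNAs of Hox and other developmental genes, 4 had peaks in both lists and 3 in Gata2WT alone, where over all noncoding genes with a peak 21.3% were in Gata2WT alone; 7 genes are too few to set apart from that share. The WT-only peaks had a −log10 q of 7.85 at Sox1ot, 3.69 at Sox2ot, whose span holds the pluripotency gene Sox2, and 2.97 at Hoxaas2. Hotair had 16.0 in Gata2cKO and 13.6 in Gata2WT, Six3os1 had 15.7 and 12.4, and Hotairm1 had 11.9 and 18.2. At Hoxb3os the Gata2WT list held a WT-only peak of 5.13 and the Gata2cKO list a peak that also reached a coding end. The lncRNA Gm38708 overlaps the deleted gene, Gata2, and ends inside it. Its peak, inside Gata2, had a −log10 q of 15.5 and a pileup of 49 in the Gata2cKO list, and 22.9 and 68 in the Gata2WT list. Since the bounds of the floxed stretch are not stated, this peak checks no label.

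Peaks at tRNA genes were strong, and few were in 1 list alone. Of 146 Gata2cKO peaks at tRNA genes, 10 were cKO-only (6.85%, 3.76 to 12.1), and of 147 Gata2WT peaks, 7 were WT-only (4.76%, 2.33 to 9.502). Over all peaks the shares were 19.7% and 28.5%. A −log10 q of at least 10 was held by 67.1% of the Gata2cKO and 70.1% of the Gata2WT peaks at tRNA genes. Among all peaks it was held by 40.9% and 39.6%. At 2 to 5, the single-list shares at tRNA genes were 25.0% of 16 Gata2cKO peaks and 33.3% of 12 Gata2WT peaks. Over all peaks of that range they were 38.9% and 52.5%. The median −log10 q at tRNA genes was 16.5 in Gata2cKO and 19.1 in Gata2WT. By gene, 197 tRNA genes had a peak in both lists, 12 in Gata2cKO alone and 6 in Gata2WT alone. At a −log10 q of at least 5 in both lists that order turned round, with 8 in Gata2cKO alone and 11 in Gata2WT alone, and with 6.40% of peaks cKO-only and 9.09% WT-only. The strongest, 84.1 in Gata2cKO and 115.7 in Gata2WT, lay at the leucine tRNA gene n-TLtaa3 together with the lncRNA B230208H11Rik. Single-list peaks had low values: apart from n-TEttc5, the cKO-only ones ran up to 6.34, at the alanine tRNA gene n-TAagc18, and the WT-only ones up to 8.51, at the methionine tRNA gene n-TMcat10. A cluster of 4 tRNA genes on chromosome 3, for glutamate, glycine, histidine and lysine, lay under 1 of the widest peaks, of 2399 bp in Gata2cKO and 2405 bp in Gata2WT.

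tRNA genes with a peak were spread unevenly over the genome. On chromosome 13, which holds the most tRNA genes, 91 of 105 tRNA genes had a peak, while on chromosome 6 only 2 of 53 had one. By amino acid, 2 of 56 cysteine tRNA genes had a peak, against 14 of 16 for proline, 18 of 25 for leucine and 16 of 22 for valine. tRNA genes of 1 kind are nearly identical in sequence, so reads could be shared among copies and a missing peak at a copy is uncertain.

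A list of structural small RNA genes held U-type snRNAs, 7SK, Y and vault RNAs, the RNAs of RNase P and RNase MRP, and telomerase RNA, with 8 U-type pseudogenes among its 30 members. None stood in 1 list alone, where over all noncoding genes with a peak 11.7% were in Gata2cKO alone and 21.3% in Gata2WT alone. That comparison is not matched for strength. Apart from Rny3, with 4.24 in Gata2cKO and 9.18 in Gata2WT, each listed gene with such a peak had one of −log10 q at least 10 in both lists. Among all peaks that strong, only 0.802% were cKO-only and 1.3% WT-only. Of the 22 members not annotated as pseudogenes, 13 had a peak in both lists and 5 had only a peak that also reached a coding end, and the 8 pseudogenes had no peak. At Rnu2-10, which encodes the U2 RNA of the spliceosome, the −log10 q was 72.9 in Gata2cKO and 94.3 in Gata2WT, and at Rn7sk, a regulator of transcription elongation, it was 69.7 and 111.5. At Rnu1a1, a U1 gene, it was 53.4 in Gata2cKO and 63.8 in Gata2WT, and at Rnu5g, a U5 gene, 48.1 and 62.3. Terc, the RNA template of telomerase, had 40.0 in Gata2cKO and 36.9 in Gata2WT. Over all snRNA genes, 4 of 60 Gata2cKO peaks were cKO-only (6.67%, 2.62 to 15.9) and 11 of 67 Gata2WT peaks WT-only (16.4%, 9.42 to 27.1). Over all peaks the shares were 19.7% cKO-only and 28.5% WT-only. A −log10 q of at least 10 was held by 65.0% of the Gata2cKO and 58.2% of the Gata2WT peaks at snRNA genes. Among all peaks it was held by 40.9% and 39.6%. The strongest peak at an snRNA gene, inside Rnf14, was at Gm23205, with 118.3 in Gata2cKO and 149.5 in Gata2WT. These genes also exist in several near-identical copies. At Gm4633, a misc_RNA gene inside Cd47, the −log10 q was 82.7 in Gata2cKO and 85.6 in Gata2WT. At snoRNA genes 11 of 42 Gata2cKO peaks were cKO-only (26.2%, 15.3 to 41.1) and 13 of 43 Gata2WT peaks were WT-only (30.2%, 18.6 to 45.1). These intervals hold the shares over all peaks of the same list.

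**Figure D5:**
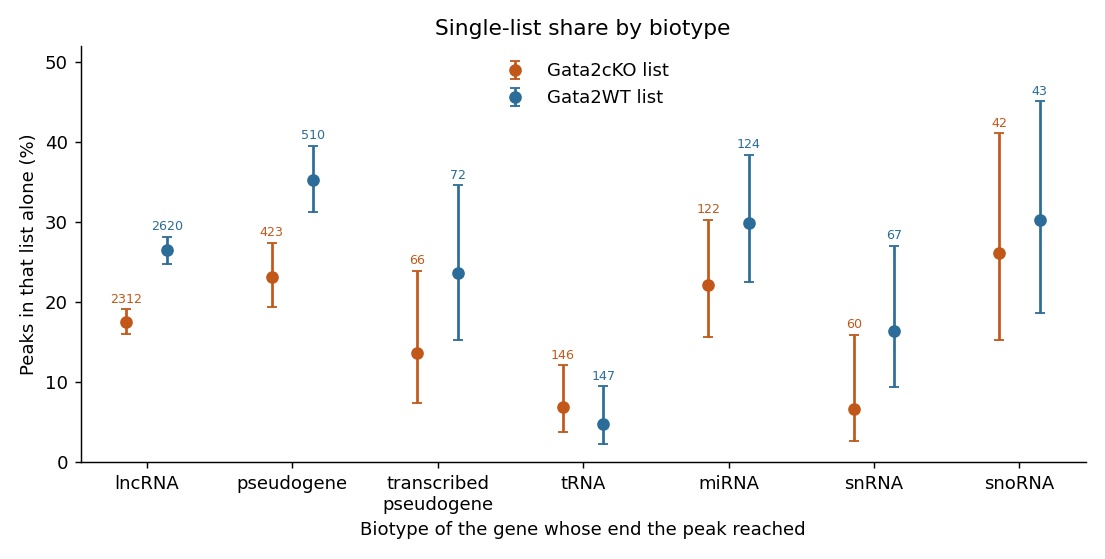
Share of peaks found in that list alone (%), by biotype of the gene reached, for the Gata2cKO list and the Gata2WT list; points are shares with 95% Wilson intervals as bars, and the number above a bar is the number of peaks. tRNA genes lie at 6.85% in Gata2cKO and 4.76% in Gata2WT, and pseudogenes at 23.2% and 35.3%. Over all peaks, not drawn, the shares are 19.7% in Gata2cKO and 28.5% in Gata2WT.

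Pseudogenes, disabled copies of other genes, had the largest WT-only share of the 7 biotypes drawn in the plot by biotype. Of 423 Gata2cKO peaks at pseudogenes, 98 were cKO-only (23.2%, 19.4 to 27.4), and of 510 Gata2WT peaks, 180 were WT-only (35.3%, 31.3 to 39.5), with a median −log10 q of 5.20 in Gata2cKO and 5.62 in Gata2WT. Over all peaks the shares were 19.7% and 28.5%, and over peaks away from all gene ends they were higher, 27.8% and 38.4%. At a −log10 q of 2 to 5, the shares at pseudogenes were 41.4% cKO-only and 58.2% WT-only. Over all peaks of that range they were 38.9% and 52.5%. Transcribed pseudogenes had a median of 8.85 in Gata2cKO and 10.7 in Gata2WT, and 13.6% of 66 peaks were cKO-only (7.34 to 23.9) and 23.6% of 72 WT-only (15.3 to 34.6). The strongest of these was at 4632415L05Rik, with 66.3 in Gata2cKO and 97.3 in Gata2WT.

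At microRNA genes 27 of 122 Gata2cKO peaks were cKO-only (22.1%, 15.7 to 30.3) and 37 of 124 Gata2WT peaks were WT-only (29.8%, 22.5 to 38.4), intervals that hold the backgrounds of 19.7% and 28.5% over all peaks. By gene, 106 had a peak in both lists, 26 in Gata2cKO alone (15.6%) and 35 in Gata2WT alone (21.0%). The strongest peak, −log10 q 112.8 in Gata2cKO and 138.8 in Gata2WT, was at Mir5620 inside Clcn4. At Mir210, a microRNA induced by low oxygen, it was 74.6 in Gata2cKO and 100.3 in Gata2WT. Most of these peaks lay inside coding genes, 68.9% in Gata2cKO and 66.1% in Gata2WT, so a peak near a microRNA can belong to its host.

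The miR-199 genes, whose mature sequences are shown above, lie inside the dynamin genes Dnm1, Dnm2 and Dnm3, and none of their peaks was shared. Mir199b in Dnm1 had a cKO-only peak (chr2:32318284-32318629) of −log10 q 8.53 and 20 fragments. Mir199a-2 in Dnm3 had a WT-only peak of 3.31 and 11 fragments. Mir199a-1 in Dnm2 had a cKO-only peak of 1.63 and, beside it, a WT-only peak of 2.45. Mir193b had the WT-only peak of 15.4 and 34 fragments named above, while Mir193a, which shares its seed, had a shared peak of 25.5 and 48 fragments in Gata2cKO, and 24.0 and 51 in Gata2WT. Other pairs with a common seed went either way. Mir9-1 and Mir9-3, on different chromosomes, had peaks in both lists. Mir132 and Mir212 are neighbours on chromosome 11 and shared 1 peak in each list, of −log10 q 27.0 in Gata2cKO and 31.1 in Gata2WT. Mir129-1, with 11.8, and Mir7-2, with 3.98, were in Gata2WT alone, while their partners Mir129-2 and Mir7b were in both lists. Mir6916, with 2.68, and Mir6942, with 4.05, were each in Gata2WT alone.

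Of 14 pluripotency microRNA genes, from clusters known in embryonic stem cells, none had a peak by this rule in both lists. Of all 1217 microRNA genes that could hold such a peak, 167 had one (13.7%), 106 of them in both lists. The 14 genes are too few to set apart from that share. Mir294 and Mir295, neighbours in 1 cluster with a common seed, shared 1 WT-only peak (chr7:3221573-3222327) of −log10 q 3.68 and 18 fragments. A peak at Mir290a, Mir290b and Mir291a also reached a coding end, and the other 9 had no peak of any kind. Of 14 germ cell and gonad microRNA genes, 3 had peaks in both lists, 2 in Gata2cKO alone and 1 in Gata2WT alone, too few to set against the 15.6% and 21.0% over all microRNA genes with a peak. Mir34b and Mir34c shared a peak of 4.91 in Gata2cKO and 7.78 in Gata2WT, and Mir202, a microRNA of the gonads, had 2.16 and 4.05. Mir10b had a cKO-only peak of 3.22 and Mir449c, which shares a seed with miR-34b, a WT-only peak of 2.92. Mir17 was counted in Gata2cKO alone with 26.9, but its peak overlapped a Gata2WT peak of 37.1 that lay 1.09 kb from the gene. Of 11 let-7 genes, which promote differentiation, Mirlet7i alone had peaks, the stronger of 34.6 in Gata2cKO and 38.8 in Gata2WT. These genes too are too few to set apart from the 13.7% of all microRNA genes.

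Of 10 microRNA genes of blood and endothelial cells, 9 had no peak of any kind in either list, among them Mir223 of myeloid cells, Mir144 and Mir451a of erythroid cells and Mir126a of endothelium. Mir142, of all blood cells, had a peak of −log10 q 1.18 and a pileup of 9 in Gata2cKO, and in Gata2WT only a peak that also reached a coding end. Since only 13.7% of all microRNA genes had a peak at an end, these absences do not show which cells the enriched fraction held.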

How the data were processed

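ATAC-seq libraries of 4 samples, 2 per genotype, were deposited as 1 combined peak list per genotype. Per the submitters' processing notes, the tools were bedtools 2.29.2, MACS2 2.2.6, Picard 2.23.0, SAMtools, Bowtie2 2.3.5.1 and Trimmomatic 0.39, on GRCm38 (mm10). The Tn5 shift, read filters, read numbers and the combining of replicates were not given in the sources used. The authors deposited, for each summit, a score, the fold enrichment over the local background, and the −log10 p and −log10 q of the peak caller. The smallest −log10 p was 3.00 in either list.

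Rows with the same interval were collapsed to their strongest summit, on 19 autosomes and X. The pileup of each summit was recovered from its fold and −log10 p as a whole number, to within 0.001, for 100.0% of peaks. Genome backgrounds of 2.01 fragments in Gata2cKO and 2.19 in Gata2WT stand in for depth, and a low pileup limits precision. Peaks were set against RefSeq gene ends (GRCm38.p6) with Python 3.11.15, pandas 2.3.3, numpy 2.4.6, scipy 1.17.1 and matplotlib 3.10.9, in steps checked on simulated data. No test was run, since each genotype has 1 list. Named were the strongest peak per biotype, the 10 strongest single-list and 5 widest peaks per list, the genes with the most peaks, and from each gene list the genes in 1 list alone and the 4 strongest shared. Other named genes, among them the miR-199 and miR-193 genes, Mir210, Gm38708, 1700113A16Rik, Crnde and 5730405O15Rik, were picked after their values were seen. The members and gene lists were chosen with earlier results of these data known. Alternatives changed the overlap, threshold, list length, windows, biotypes and summit used.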

Additional observations from a re-analysis of the deposited data

Results flagged for a closer look

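Chromosome Y lay outside the comparisons, yet the lists of these female embryos hold peaks assigned to it, 4 intervals in the Gata2cKO list and 6 in the Gata2WT list. The Gata2cKO intervals span chrY:90739499-90812896, with −log10 q of 2.13 to 16.5. The Gata2WT intervals span chrY:90739696-90812906, with −log10 q of 4.69 to 14.98. No control level was available, and the source of these reads was not tested.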

How the results depend on the processing

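No paired analysis was possible because each genotype has 1 combined list, and for the same reason no replicate could be left out. Of 259 recomputed values, 191 kept within their counting interval or 1.5 times the reported count. Of the 51 values of the main results, 23 did, and of the 208 other values, 168 did. The main results were the shares, peaks per Mb, strength and gene counts over all noncoding ends. Why values moved beyond these limits was not tested. The cKO-only and WT-only shares at noncoding ends, 17.96% and 27.1% as reported, were 13.8% and 22.4% at a −log10 q of at least 5, 20.6% and 22.4% with lists of equal length, 27.1% and 35.1% with a reciprocal overlap of 50%, 25.4% and 33.6% with summits within 250 bp as shared, 15.5% and 25.5% with a 0.5 kb window, and 20.3% and 29.4% with a 2 kb window; at a −log10 q of at least 2 the WT-only share was 25.1%. The WT-only share was the higher in 12 of 12 settings, and likewise at lncRNA, microRNA and snRNA genes. Elsewhere the order of the 2 shares turned round in places: at tRNA genes at a −log10 q of at least 5 (6.40% cKO-only and 9.09% WT-only), at snoRNA genes with lists of equal length (28.6% and 25.6%), and at transcribed pseudogenes at a −log10 q of at least 5 (15.4% and 14.0%). Peaks per Mb, 36.9 in Gata2cKO and 41.8 in Gata2WT as reported, were 22.0 and 24.7 at a −log10 q of at least 5, 33.5 and 38.0 by summit position, 49.5 and 55.5 without pseudogenes, 51.7 and 59.3 with a 0.5 kb window, and 27.8 and 31.2 with a 2 kb window. At a −log10 q of at least 5, 267 genes had a peak in Gata2cKO alone, 472 in Gata2WT alone and 1775 in both. With the first listed summit, the median −log10 q was 6.02 in Gata2cKO and 6.07 in Gata2WT. The lists are unscaled and combined, so differences in depth and between genotypes cannot be told apart.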
